A study of Mus musculus with 45 samples.

Results

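Interstitial macrophages (IM) were compared with alveolar macrophages (AM) at 6h after intraperitoneal (ip) injection of lipopolysaccharide (LPS). The comparison rests on 5 of the 45 libraries of the series, chosen by their labels: 2 libraries of IM and 3 of AM. All came from the lungs of C57BL/6J mice, and the cells were purified by flow cytometry, for low-input polyA RNA libraries of the Smart-seq2 type. The labels give no dose of LPS, no age and no number of mice. As a baseline, 2 IM and 4 AM libraries of 0h, taken before LPS, were set beside them.

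AM live in the airspace, where they take up surfactant lipid and inhaled particles, and their identity rests on the growth factor GM-CSF and the lipid-sensing factor PPAR-gamma. IM lie in the lung tissue around airways and vessels, and resident IM are known for complement C1q, MHC class II and scavenger receptors. LPS, a component of the outer membrane of Gram-negative bacteria, is sensed by TLR4. TLR4 signals through MyD88 to NF-kB and cytokine genes, and through TRIF to IRF3, type I interferon and the interferon-stimulated genes.

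The IM libraries are named by the ends of their titles, A161219 and N160623, and the AM libraries A161219, B161219 and N160623, where N stands for a title without a letter. Values are given in the order N160623, A161219 for IM and N160623, A161219, B161219 for AM; at 0h it is A171227, B171227 for IM and N160623, A171227, C171227, D171227 for AM. The labels do not say what these codes mean or whether libraries of a group came from separate animals. The p-values therefore speak only for the spread within groups, pooled over the 27 fitted libraries in 12 groups, which may be technical. The column sums of the deposited length-normalised expression values (TPM) were 436388 and 495387 in IM and 362554 to 403225 in AM. Rn45s, a ribosomal RNA precursor, made up 33.32 and 6.05% of the sum in IM, against 30.76, 15.13 and 11.64% in AM, so that it was highest in the N160623 library on each side. Across genes, Pearson r of log2(TPM+1) was 0.968 between the IM libraries, 0.976 to 0.981 among the AM libraries and 0.842 to 0.892 between IM and AM, a description of the libraries and not of independent points. In these bulk libraries, fewer cells of a type and less RNA per cell cannot be told apart.

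The label AM was borne out by its markers. Summed over the alveolar macrophage list, the IM libraries held 2560 and 1278 TPM, against 8688, 13380 and 16868 TPM in the AM libraries. Most of the IM sum was Chil3, a chitinase-like protein that monocytes and neutrophils can also make, at 1930 and 881 TPM. The markers of the label IM were called in part. Of 21 interstitial macrophage markers 9 were higher in IM at 6h and none was lower, with a median relative to all genes of 2.32, and 15 were higher against the median difference and 14 after quantile normalization. Summed over the list, the IM libraries held 667 and 709 TPM, against 40.2, 104 and 92.6 TPM in AM. The inflammatory monocyte libraries of 6h held 380 and 415 TPM of these markers, so that much of this sum was not particular to IM. The IM libraries of 0h had held 8512 and 7013 TPM of the same markers. Lyve1, the hyaluronan receptor of perivascular IM, had 3.33 and 1.16 TPM in IM at 6h, against 0.498, 0.93 and 1.23 TPM in AM. Folr2, a folate receptor, Cd163, the haemoglobin scavenger receptor, and Cx3cr1, the fractalkine receptor, were likewise at 1.61 TPM or less in IM at 6h, and none of these 4 genes was called at 6h.

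Markers of neutrophils, the granulocytes that gather in lung vessels after LPS, stood with the IM label. Summed over 14 neutrophil markers, the IM libraries N160623 and A161219 held 17418 and 57247 TPM, which was 3.99 and 11.6% of the column sum, against 445, 384 and 421 TPM in AM. Most of this was S100a8 and S100a9, which monocytes also express. Without these genes, the sums were 1684 and 3750 TPM in IM, against 59.1, 46.8 and 48 TPM in AM. The full list held 22666 and 11302 TPM in IM at 0h, and 3087 and 1789 TPM in the inflammatory monocyte libraries of 6h. Classical monocyte markers summed to 2561 and 7102 TPM in IM, against 242, 515 and 503 TPM in AM. They summed to 3689 and 6975 TPM in IM at 0h, and to 5568 and 4352 TPM in the inflammatory monocyte libraries of 6h. On both lists IM A161219 was the higher IM library of 6h. These sums bear on every gene below that neutrophils or monocytes also express, and their part in the differences was not tested.

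**Figure D1:**
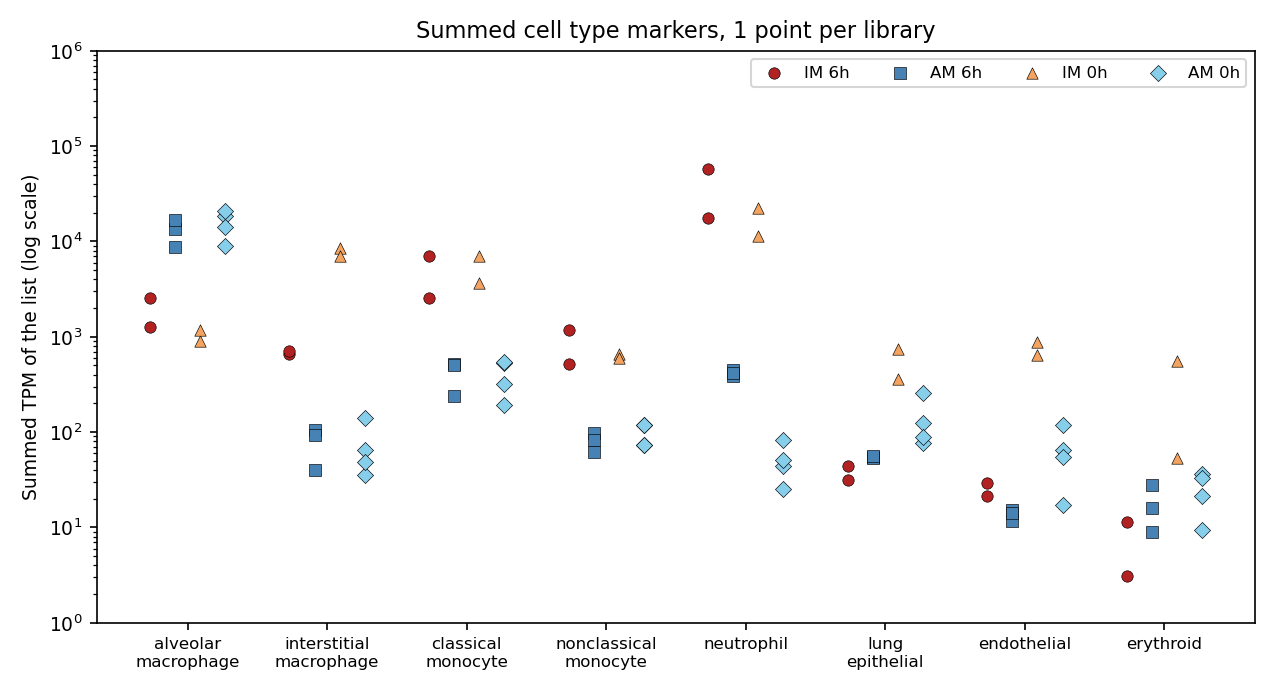
Summed TPM of each marker list on a log axis, 1 point per library, for IM and AM at 6h and at 0h. Neutrophil markers lie at 17418 and 57247 TPM in IM at 6h, against 384 to 445 TPM in AM, and interstitial macrophage markers lie at 667 and 709 TPM in IM at 6h, against 8512 and 7013 TPM in IM at 0h.

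Transcripts of most other cells were scarce. Lung epithelial markers summed to 31.3 and 44.2 TPM in IM, against 53.2 to 56 TPM in AM. Endothelial markers summed to 21.2 and 29.2 TPM in IM, against 11.6 to 15.4 TPM in AM. Of 13 endothelial markers tested, Pecam1, an adhesion molecule that neutrophils and platelets also carry, was higher, and Vwf was lower. Of 8 epithelial markers, Epcam and Cdh1, genes of epithelial junctions, were lower. None of the 6 dendritic cell, 3 fibroblast or 6 erythroid markers tested was called by limma, and 0 of them had an unadjusted p under 0.05. Of 5 lymphocyte markers, Cd79b alone was higher, with an adjusted p of 0.049 that passed 0.05 with all 5 libraries and with none of the 5 left-out sets. The only eosinophil marker tested, Ear6, was lower in IM, at 2.51 and 0 TPM, against 50.5, 40.2 and 59.6 TPM in AM. Its transcript is close to those of Ear1 and Ear2, and reads may have been split between them. No platelet marker passed the filter.

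Genes that reached 5 TPM in 2 or more of 27 libraries were tested on log2(TPM+1), which understates changes of low genes. Of 8937 genes tested, 3208 (35.9%) were called at a limma adjusted p under 0.05. Of these, 1074 (12% of those tested) were higher in IM and 2134 (23.9%) were lower. The median log2 difference over all genes tested was -0.38, and each log2 difference below is given relative to that median, while the tests and the words higher and lower refer to values before the subtraction. The share of calls that were higher was 33.5%, and it followed the scaling: it was 44.8% after quantile normalization (1697 of 3784 calls), 20.9% with TPM rescaled without Rn45s and Lars2 (1129 of 5398), and 56.6% when each gene was tested against the median difference (1462 of 2581). The libraries of IM and AM did not overlap for 3199 of the 3208 genes called (99.7%), against 5504 of all 8937 tested (61.6%). The direction was the same among the A161219 and B161219 libraries and between the N160623 libraries for 3205 of the genes called (99.9%), against 7572 of all tested (84.7%). Calling picks genes whose groups lie apart in the same values, so neither share is separate support for the calls. Without IM A161219 the count was 2035, with the lone IM library assumed to vary like the other groups, and 877 genes passed a test for a log2 difference beyond 1.

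**Figure D2:**
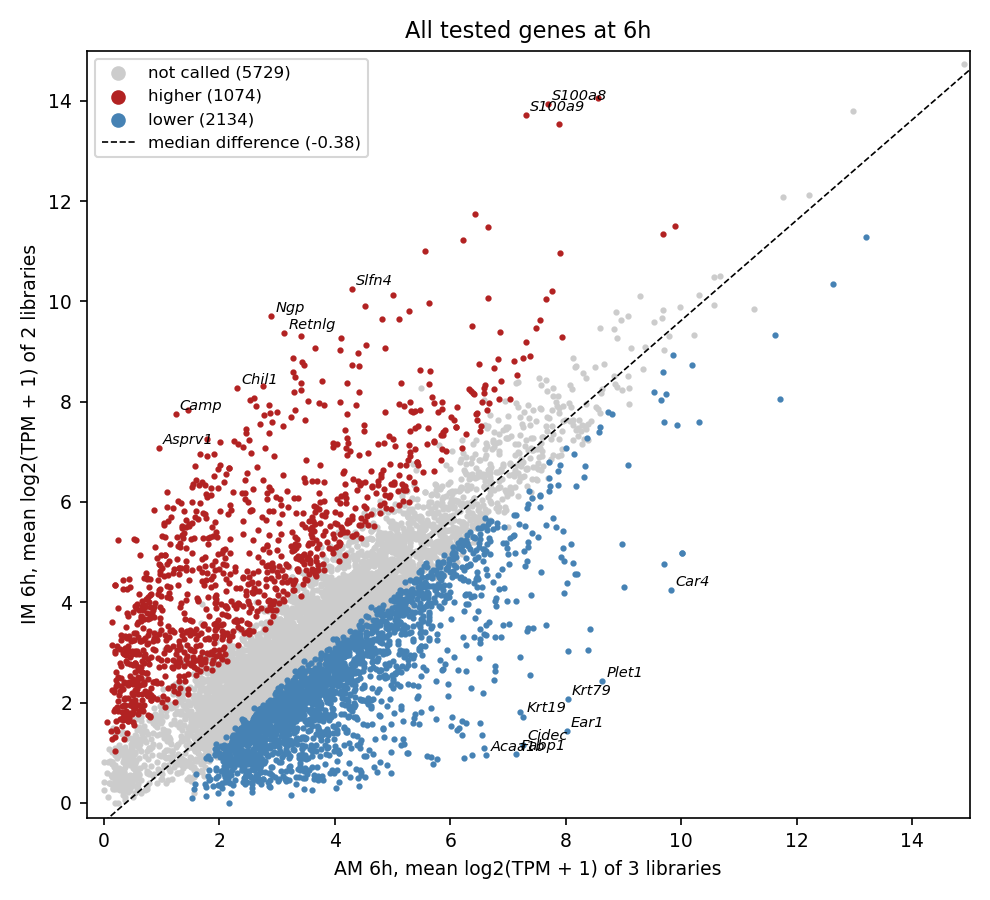
Mean log2(TPM + 1) of the 2 IM libraries (vertical) against that of the 3 AM libraries (horizontal) at 6h, 1 point per tested gene, with the dashed line at the median difference of -0.38. The 1074 genes called higher and the 2134 called lower in IM are coloured, and Ngp and Ear1 lie among the furthest from the line.

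The genes furthest above AM were transcripts of neutrophil granules and of the acute phase. Ngp, a granule protein of neutrophil precursors, had 604 and 1157 TPM in IM, against 14.8, 5.12 and 3.24 TPM in AM, a log2 difference of 7.20 ± 0.51 (SE; limma adjusted p = 1.51e-09). Camp, the antimicrobial cathelicidin, had 140 and 331 TPM in IM, against 4.6, 1.36 and 0 TPM in AM (6.90 ± 0.76). The alarmin S100a9 had 7231 and 24856 TPM in IM, against 175, 142 and 159 TPM in AM (6.78 ± 0.73, adjusted p = 3.21e-07). In each of the 3, IM A161219 was the highest library and the groups lay far apart. Ly6g, the surface protein by which mouse neutrophils are recognised, had 26.3 and 51.2 TPM in IM, and was at 0.628, 0 and 0 TPM in AM. All 14 neutrophil markers were higher in IM, with a median log2 difference of 5.46.

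Il1r2, the decoy receptor that binds IL-1 without signalling, had 357 and 1111 TPM in IM, against 6.41, 12 and 11.5 TPM in AM (6.27 ± 0.59, adjusted p = 5.74e-08). Pglyrp1, a peptidoglycan-binding protein of granules, had 276 and 796 TPM in IM, against 8.93, 8.35 and 8.7 TPM in AM (5.99 ± 0.46). Both genes serve neutrophils and monocytes alike, and the neutrophil sums of the same IM libraries were 17418 and 57247 TPM. Asprv1, an aspartic protease, had nearly one level in IM, 133 and 134 TPM, against 2.16, 0.703 and 0.35 TPM in AM (6.50 ± 0.37). Slfn4, an interferon-responsive Schlafen gene of myeloid cells, had 654 and 2267 TPM in IM, against 11.2, 26.5 and 21.4 TPM in AM (6.35 ± 0.56). Retnlg, S100a8 and Chil1 differed by 6.63, 6.62 and 6.36. Upp1, a uridine phosphorylase of pyrimidine salvage, had 181 and 403 TPM in IM, against 3.7, 9.5 and 3.44 TPM in AM (5.88 ± 0.67).

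Acute-phase and iron-binding proteins were among the most abundant transcripts of IM. Of 14 tested, 11 were higher and none lower, with a median of 3.17. Lcn2, a lipocalin that withholds iron siderophores from bacteria, had 6916 and 20597 TPM in IM, against 163, 308 and 263 TPM in AM (6.04 ± 0.59, adjusted p = 1.04e-07). Saa3, a serum amyloid A, had 11864 and 24538 TPM in IM, against 158, 832 and 400 TPM in AM (5.89 ± 0.71). IM A161219 was the highest library for both, and the lowest AM library, N160623, lay below the other AM libraries. Hp, the haemoglobin binder haptoglobin, differed by 5.38, and Slc11a1, the phagosomal metal transporter NRAMP1, by 5.07. The ferritin genes Fth1 and Ftl1 and the transferrin receptor gene Tfrc were not called.

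Of 12 classical monocyte markers, 10 were higher in IM, with a median of 4.36. Ly6c2 had 452 and 1404 TPM in IM, against 9.15, 62.2 and 33.4 TPM in AM (5.22 ± 0.74, adjusted p = 1.62e-05). Ccr2, the receptor by which monocytes leave marrow, had 21.8 and 65.9 TPM in IM, against 0.561, 2.77 and 1.94 TPM in AM (4.30 ± 0.62). Plac8 and Ifitm6 differed by 5.83 and 5.71, and Fn1 and Mgst1 were not called. Reads of Ly6c2, of Ifitm genes and of the Ms4a family may have been split among near copies, so that single members of these families are uncertain. Of 9 nonclassical monocyte markers 7 were higher, with a median of 2.02, and 4 were without IM A161219. Of 6 Ms4a genes, 5 were higher and Ms4a8a was lower.

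**Figure D3:**
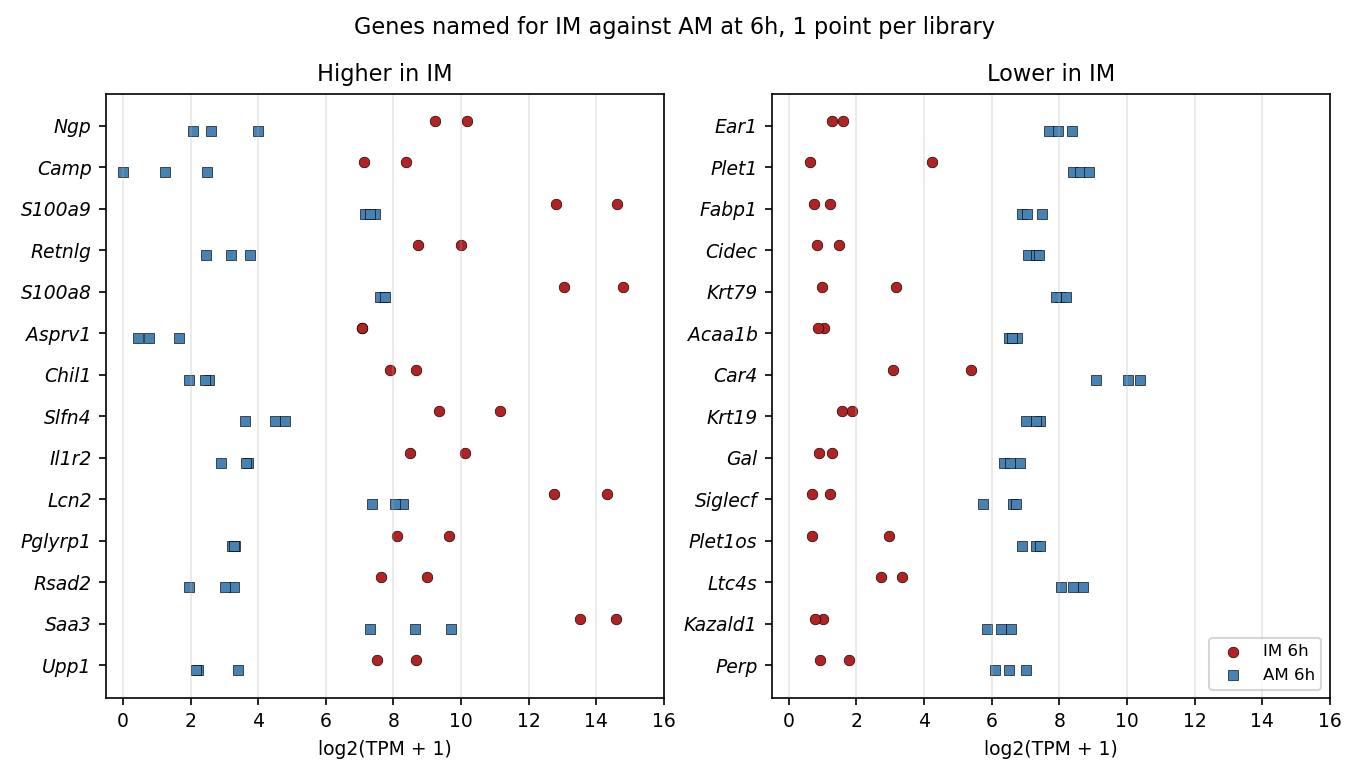
Log2(TPM + 1) in each library of IM and AM at 6h for the 14 genes named as higher in IM (left) and the 14 named as lower (right). Genes whose IM and AM libraries overlapped were not eligible; the IM libraries lie almost on one point for Asprv1 and far apart for Plet1, at 17.8 and 0.547 TPM.

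The genes furthest below AM were those of the alveolar macrophage programme. Of 24 alveolar macrophage markers tested, 23 were lower in IM, with a median of -3.60; Fabp4 had 59.2 and 53.6 TPM in IM, against 122, 85.2 and 182 TPM in AM, and was not called. All 24 had been lower at 0h. Siglecf, the sialic acid receptor by which AM are sorted, had 0.622 and 1.34 TPM in IM, against 53, 97.6 and 105 TPM in AM (-5.02 ± 0.55, adjusted p = 6.55e-08). Ear1, an RNase of the eosinophil-associated family, had 2.03 and 1.42 TPM in IM, against 208, 250 and 328 TPM in AM (-6.19 ± 0.53). Car4, a membrane carbonic anhydrase, had 40.9 and 7.54 TPM in IM, against 541, 1045 and 1331 TPM in AM (-5.20 ± 0.69). IM N160623 held more of Car4 than IM A161219 did, yet both lay below every AM library. The same order held for Marco, a scavenger receptor of bacteria and dust, with 41.3 and 1.94 TPM in IM, against 160, 151 and 176 TPM in AM (-3.49 ± 0.71). Pparg itself had 3.04 and 2.38 TPM in IM, against 40.5, 49 and 63.1 TPM in AM (-3.41).

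Plet1, a surface protein of AM, had 17.8 and 0.547 TPM in IM, against 337, 392 and 465 TPM in AM (-5.81 ± 0.81). Its opposite-strand transcript Plet1os differed by -5.01, but the sources used here do not say whether counting used strand, and reads of the pair may not be told apart. Fabp1 and Cidec, a fatty acid carrier and a protein of lipid droplets, had 1.31 and 0.663 TPM and 1.81 and 0.783 TPM in IM. In AM, Fabp1 had 118, 131 and 177 TPM, and Cidec 134, 157 and 167 TPM. Both genes were near 1 TPM in IM and above 100 TPM in every AM library, with differences of -5.78 and -5.71. The keratin genes Krt79 and Krt19, the galanin gene Gal and the p53 target Perp differed by -5.59, -5.15, -5.11 and -4.80, and Kazald1 by -4.96.

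Lipid handling was lower beyond those markers. Of 24 genes of fatty acid handling and lipid droplets, 13 were lower and none higher, with a median of -0.77; without AM A161219 or without AM B161219 the count was 8. Acaa1b, a thiolase of peroxisomal beta-oxidation, had 1.07 and 0.81 TPM in IM, against 107, 90.7 and 96.3 TPM in AM (-5.29 ± 0.44, adjusted p = 2.13e-09). It is not on the list. Ech1, an isomerase of unsaturated fatty acid oxidation, had 25.5 and 33 TPM in IM, against 189, 231 and 319 TPM in AM (-2.62 ± 0.49). Acadm and Cpt2, of mitochondrial beta-oxidation, differed by -1.63 and -1.54, and the desaturase Scd1 by -1.80. Of 10 genes of LXR and lipid efflux, 4 were lower (Ch25h, Apoc1, Lpcat3, Srebf1). Apoc2, a cofactor of lipoprotein lipase, was higher, with 36.4 and 68.5 TPM in IM, against 1.6, 3.73 and 2.23 TPM in AM (4.29 ± 0.66). For this list and the next, the shares of all genes tested were 12% higher and 23.9% lower. Of 18 cholesterol synthesis genes, 3 were higher, Fdps and Sc5d among them, and Dhcr7 was lower; without IM A161219 none was higher, without AM N160623 1 was, and 7 were after quantile normalization.

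Ltc4s, Alox5 and Lta4h, which make leukotrienes, were called lower in IM, while Alox5ap of the same list was not. The median of that list, the arachidonate enzymes, was -0.05, and its share called lower was near the 23.9% of all genes tested. Ltc4s, leukotriene C4 synthase, had 9.17 and 5.65 TPM in IM, against 417, 262 and 341 TPM in AM (-4.96 ± 0.49, adjusted p = 2.06e-08). Alox5, the enzyme that starts leukotriene synthesis, had 7.26 and 8.35 TPM in IM, against 45.6, 46.4 and 39.6 TPM in AM (-1.96 ± 0.37). In both genes the IM libraries were close to each other and the groups did not overlap. Pla2g7, the hydrolase of platelet-activating factor, had 284 and 632 TPM in IM, against 5.67, 15.7 and 11.2 TPM in AM (5.64 ± 0.62). Of 10 arachidonate enzymes, 3 were higher and 3 lower (Lta4h was the other), and without IM A161219 or without AM N160623 1 was higher. Ptgs2 and Ptges, cyclooxygenase 2 and prostaglandin E synthase, were higher in IM among the proinflammatory genes.

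Cytokine genes of the proinflammatory list were higher in IM nearly throughout, while Il18, a cytokine counted among the alveolar macrophage markers, was called lower. Of 17 proinflammatory cytokines and enzymes, 16 were higher and none lower, with a median of 2.98; Il16 was not called. Il1b had 497 and 2500 TPM in IM, against 15.8, 43.9 and 43.1 TPM in AM (5.50 ± 0.77, adjusted p = 1.37e-05). Tnf had 51.4 and 89.6 TPM in IM, against 4.71, 9.13 and 7.46 TPM in AM (3.51 ± 0.42). Il6, the cytokine of fever and the acute phase, was low in IM, at 5.58 and 9.16 TPM, and at 0.253, 0.474 and 0.471 TPM in AM (2.93 ± 0.39). Hdc, the enzyme that makes histamine, had 110 and 191 TPM in IM, against 2.89, 4.51 and 2.02 TPM in AM (5.57 ± 0.35). Ebi3, a subunit of IL-27 and IL-35, and Nos2, the inducible nitric oxide synthase, differed by 4.81 and 3.63. IM A161219 was the higher IM library for Il1b, Tnf, Il6, Hdc, Ebi3 and Nos2, as it was for the neutrophil markers.

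Most chemokines tested were higher in IM as well, with exceptions. Of 11 CC chemokines 7 were higher and 1 lower, with a median of 4.38. At 0h 8 of the 11 had been called higher, and for the change against 0h 1 was called higher and 3 lower. Ccl5, which draws T cells and monocytes, had 1827 and 4490 TPM in IM, against 37.2, 223 and 119 TPM in AM (5.21 ± 0.78, adjusted p = 3.44e-05). Ccl2, the ligand of Ccr2, had 147 and 186 TPM in IM, against 1.79, 12.1 and 9.34 TPM in AM (4.91 ± 0.53). Both AM ranges were wide, and neither came near the IM libraries. Ccl6 went the other way, with 693 and 102 TPM in IM, against 2649, 3202 and 4509 TPM in AM (-3.27 ± 0.68). Ccl8, Ccl9 and Ccl17 were not called.

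Of 10 CXC and CX3C chemokines, 8 were higher and 2 lower, with a median of 2.72. Cxcl2, a neutrophil attractant, had 519 and 559 TPM in IM, against 22.3, 27.9 and 36.2 TPM in AM (4.59 ± 0.55). Cxcl10, the interferon-induced ligand of CXCR3, had 227 and 1118 TPM in IM, against 3.94, 44.2 and 40.6 TPM in AM (4.97 ± 1.00, adjusted p = 0.000867). Cxcl3, another neutrophil attractant, had 154 and 13.6 TPM in IM, against 3.55, 6.64 and 14.8 TPM in AM. The libraries of Cxcl3 overlapped, since IM A161219 lay below AM B161219, although the gene was called (2.92 ± 0.88, adjusted p = 0.0265). Cx3cl1, fractalkine, was at 0.389 and 0.641 TPM in IM, against 17.2, 17 and 17 TPM in AM (-3.20 ± 0.29), and Cxcl14 was lower as well. Without IM A161219, 6 of these chemokines were higher and 1 lower.

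Receptors for these signals were called in part. Of 13 chemokine and chemoattractant receptors 8 were higher and 5 not called, with a median of 2.13, and 5 were higher without IM A161219. Ptafr, the receptor of platelet-activating factor, had 61.3 and 96.2 TPM in IM, against 1.5, 5.47 and 2.79 TPM in AM (4.69 ± 0.64, adjusted p = 1.34e-05). Cmklr1, the chemerin receptor, differed by 4.33, Gpr84, a receptor of medium-chain fatty acids, by 4.06 and Ccrl2 by 3.99. Of 23 cytokine receptors and antagonists, 11 were higher, 3 lower and 9 not called, and 5 were higher and 2 lower without IM A161219. Il1rn, the IL-1 receptor antagonist, had 451 and 1191 TPM in IM, against 50.5, 98.7 and 111 TPM in AM (3.53 ± 0.56). Csf1r, the receptor of M-CSF, had 89.3 and 128 TPM in IM, against 18.4, 47.3 and 31.4 TPM in AM (2.18 ± 0.42). The TGF-beta receptor genes Tgfbr2 and Tgfbr1 differed by -2.81 and -1.48 and Il6st by -0.51, all called lower. Without AM N160623, 5 receptors were lower. The receptor genes of GM-CSF, Csf2ra and Csf2rb, were not called.

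Feedback genes of the response stood with the cytokines. Of 16 genes of NF-kB subunits and inhibitors, 14 were higher and none lower, with a median of 2.49, and 8 were without IM A161219. Nfkbiz, the IkB-zeta that co-activates late cytokine genes, had 37 and 85.1 TPM in IM, against 3.29, 4.34 and 3.2 TPM in AM (4.03 ± 0.32, adjusted p = 1.22e-08). Tnfaip3, the deubiquitinase A20 that ends NF-kB signalling, had 54.3 and 130 TPM in IM, against 7.07, 16.5 and 14.4 TPM in AM (3.10 ± 0.41). The subunit genes Nfkb1 and Rela were the 2 not called. Nfkb1 had 22.5 and 39.7 TPM in IM, against 12.1, 22.4 and 25.1 TPM in AM, and Rela had 24.3 and 44.6 TPM in IM, against 23, 38.5 and 34.9 TPM in AM. So the groups overlapped for both subunits.

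Of 16 anti-inflammatory and feedback genes 8 were higher and 1 lower, with a median of 1.59. Il10, the main anti-inflammatory cytokine of macrophages, had 15.9 and 23.5 TPM in IM, against 0.221, 0.207 and 0 TPM in AM (4.54 ± 0.46, adjusted p = 2.22e-07). Acod1, which makes itaconate, had 171 and 339 TPM in IM, against 1.89, 12.4 and 5.18 TPM in AM (5.67 ± 0.53). Arg1, the arginase of alternative activation, had 217 and 23.8 TPM in IM, against 0.98, 1.83 and 0.729 TPM in AM (5.49 ± 0.93). Arg1 and Cxcl3 were several times higher in IM N160623 than in IM A161219, the reverse of the order for neutrophil markers. Socs1 and Arg2 differed by 4.81 and 5.11. The 1 gene lower was Mrc1, the mannose receptor CD206, with 14.2 and 3.36 TPM in IM, against 193, 291 and 321 TPM in AM (-4.63 ± 0.56).

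Genes of the sensing machinery were called in part. Of 24 genes of the TLR4 complex, its adaptors and other pattern receptors, 13 were higher and 1 lower, with a median of 1.75. Tlr4 had 6.39 and 11.5 TPM in IM, against 7.4, 14.5 and 16.6 TPM in AM, its libraries overlapped, and it was not called. Its partner Ly96 and the adaptor genes Tirap, Ticam1 and Ticam2 were not called either, while Myd88 was higher. Irak3, the inhibitory kinase of TLR signalling, had 51.4 and 99.2 TPM in IM, against 3.74, 6.12 and 3.3 TPM in AM (4.17 ± 0.38, adjusted p = 6.35e-08). Trem3, Tlr1 and Lbp were higher by 4.36, 3.44 and 3.04, and Irak1 was lower. Of 18 immediate early genes 10 were higher and 2 lower (Egr2, Maff), with a median of 1.86. Nr4a1, an orphan nuclear receptor, had 180 and 236 TPM in IM, against 6.93, 11.9 and 7.15 TPM in AM (4.85 ± 0.34), and the phosphatase gene Dusp2 differed by 5.09. Fos, Fosb and Egr1 were not called.

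Of 16 genes of inflammasomes and cell death 6 were higher and none lower, with a median of 1.19. Casp4, the caspase that senses LPS inside the cell, had 76.8 and 239 TPM in IM, against 8.63, 17.4 and 20.5 TPM in AM (3.51 ± 0.46, adjusted p = 1.08e-05). The necroptosis genes Ripk3 and Mlkl differed by 2.86 and 2.89, and Pycard, Nlrp3 and Gsdmd were also higher.

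Every type I interferon-stimulated gene tested was higher in IM. All 27 of 27 were called higher, with a median of 4.40. The count was 27 under each of the 3 other scalings and 23 without IM A161219, and 26 genes had been called higher at 0h. Rsad2, the antiviral enzyme viperin, had 198 and 509 TPM in IM, against 2.89, 8.82 and 7.08 TPM in AM (5.94 ± 0.54, adjusted p = 4.07e-08). Ifitm3, which blocks viral entry, had 2143 and 5523 TPM in IM, against 35.5, 185 and 93 TPM in AM (5.71 ± 0.92). Ifit1, which binds viral RNA caps, had 130 and 453 TPM in IM, against 3.6, 7.34 and 9.13 TPM in AM (5.45 ± 0.50). Isg15, the ubiquitin-like modifier, had 316 and 860 TPM in IM, against 7.26, 27.9 and 19.9 TPM in AM (5.32). In each of these genes the lowest library was AM N160623 and the highest IM A161219. Irf7, the factor that amplifies interferon production, differed by 4.93, and Ifit3 by 5.44. Neutrophils and monocytes also express these genes.

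Since these genes stood together, their promoters were read for the interferon-stimulated response element (ISRE), which the interferon-activated complex ISGF3 binds. RefSeq promoters on GRCm38.p6, 250 bases before to 50 after the start, were matched for 19 of the 27 genes. Its core, 2 runs of GAAA set 2 bases apart, was found on either strand in 13 of 19 (68.4%), against 952 of all 27025 promoters (3.52%), all 300 bases long. The 5 members with a match and the largest differences are shown 5′ to 3′ on the strand of the gene, with matches in capitals (shown as runs of TTTC where the match lies on the other strand; 3 overlapping matches in Isg15). They are Rsad2 (chr12:26456403-26456702, minus strand), Ifitm3 (chr7:141010695-141010994, minus), Ifit1 (chr19:34640639-34640938, plus), Ifit3 (chr19:34583279-34583578, plus) and Isg15 (chr4:156200769-156201068, minus).
Rsad2: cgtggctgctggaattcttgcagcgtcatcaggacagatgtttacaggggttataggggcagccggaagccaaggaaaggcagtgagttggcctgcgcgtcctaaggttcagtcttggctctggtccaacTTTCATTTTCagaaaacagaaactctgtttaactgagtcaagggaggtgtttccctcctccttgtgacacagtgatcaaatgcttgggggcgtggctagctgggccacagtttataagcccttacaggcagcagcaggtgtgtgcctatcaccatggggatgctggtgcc
Ifitm3: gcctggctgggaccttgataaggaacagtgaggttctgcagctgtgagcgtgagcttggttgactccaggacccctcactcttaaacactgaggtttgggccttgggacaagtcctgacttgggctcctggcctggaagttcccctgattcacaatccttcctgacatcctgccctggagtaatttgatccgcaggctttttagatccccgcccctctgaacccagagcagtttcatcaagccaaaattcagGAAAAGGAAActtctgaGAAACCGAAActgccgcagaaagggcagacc
Ifit1: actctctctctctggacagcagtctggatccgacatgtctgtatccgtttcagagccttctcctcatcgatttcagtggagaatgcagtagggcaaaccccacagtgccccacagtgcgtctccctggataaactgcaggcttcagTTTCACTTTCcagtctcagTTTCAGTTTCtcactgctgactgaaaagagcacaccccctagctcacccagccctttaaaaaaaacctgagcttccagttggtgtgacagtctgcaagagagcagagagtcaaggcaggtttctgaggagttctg
Ifit3: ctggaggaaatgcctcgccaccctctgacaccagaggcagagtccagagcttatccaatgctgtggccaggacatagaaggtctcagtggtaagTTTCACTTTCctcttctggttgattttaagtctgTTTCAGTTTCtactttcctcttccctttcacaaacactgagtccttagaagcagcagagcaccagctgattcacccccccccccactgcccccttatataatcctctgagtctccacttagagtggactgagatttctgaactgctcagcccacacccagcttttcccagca
Isg15: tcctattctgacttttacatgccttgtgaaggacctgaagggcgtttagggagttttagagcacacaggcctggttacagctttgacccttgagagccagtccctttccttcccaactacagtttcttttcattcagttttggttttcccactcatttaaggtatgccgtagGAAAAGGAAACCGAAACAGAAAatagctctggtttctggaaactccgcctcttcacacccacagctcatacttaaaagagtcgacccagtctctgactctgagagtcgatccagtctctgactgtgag

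The match began 120 bases before the start in Rsad2, 104 and 85 before it in Ifit1, 156 and 122 before it in Ifit3, and 78, 72 and 66 before it in Isg15. In Ifitm3 the matches began 2 and 19 bases after the start. A match describes these letters and is no measurement of binding.

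Genes associated with interferon-gamma showed the same direction. Of 15 tested 14 were higher and none lower, with a median of 3.34. At 0h 14 of the 15 had also been called higher, and none was called for the change against 0h. Gbp2, a guanylate-binding GTPase, had 226 and 517 TPM in IM, against 5.12, 19 and 20.1 TPM in AM (5.03 ± 0.86, adjusted p = 0.000167). Serpina3g differed by 5.39, Gbp5 by 4.22 and Nlrc5, the activator of MHC class I genes, by 3.84. Iigp1 had 5.83 and 14.9 TPM in IM, against 0.184, 2.67 and 0.514 TPM in AM, and was not called.

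**Figure D4:**
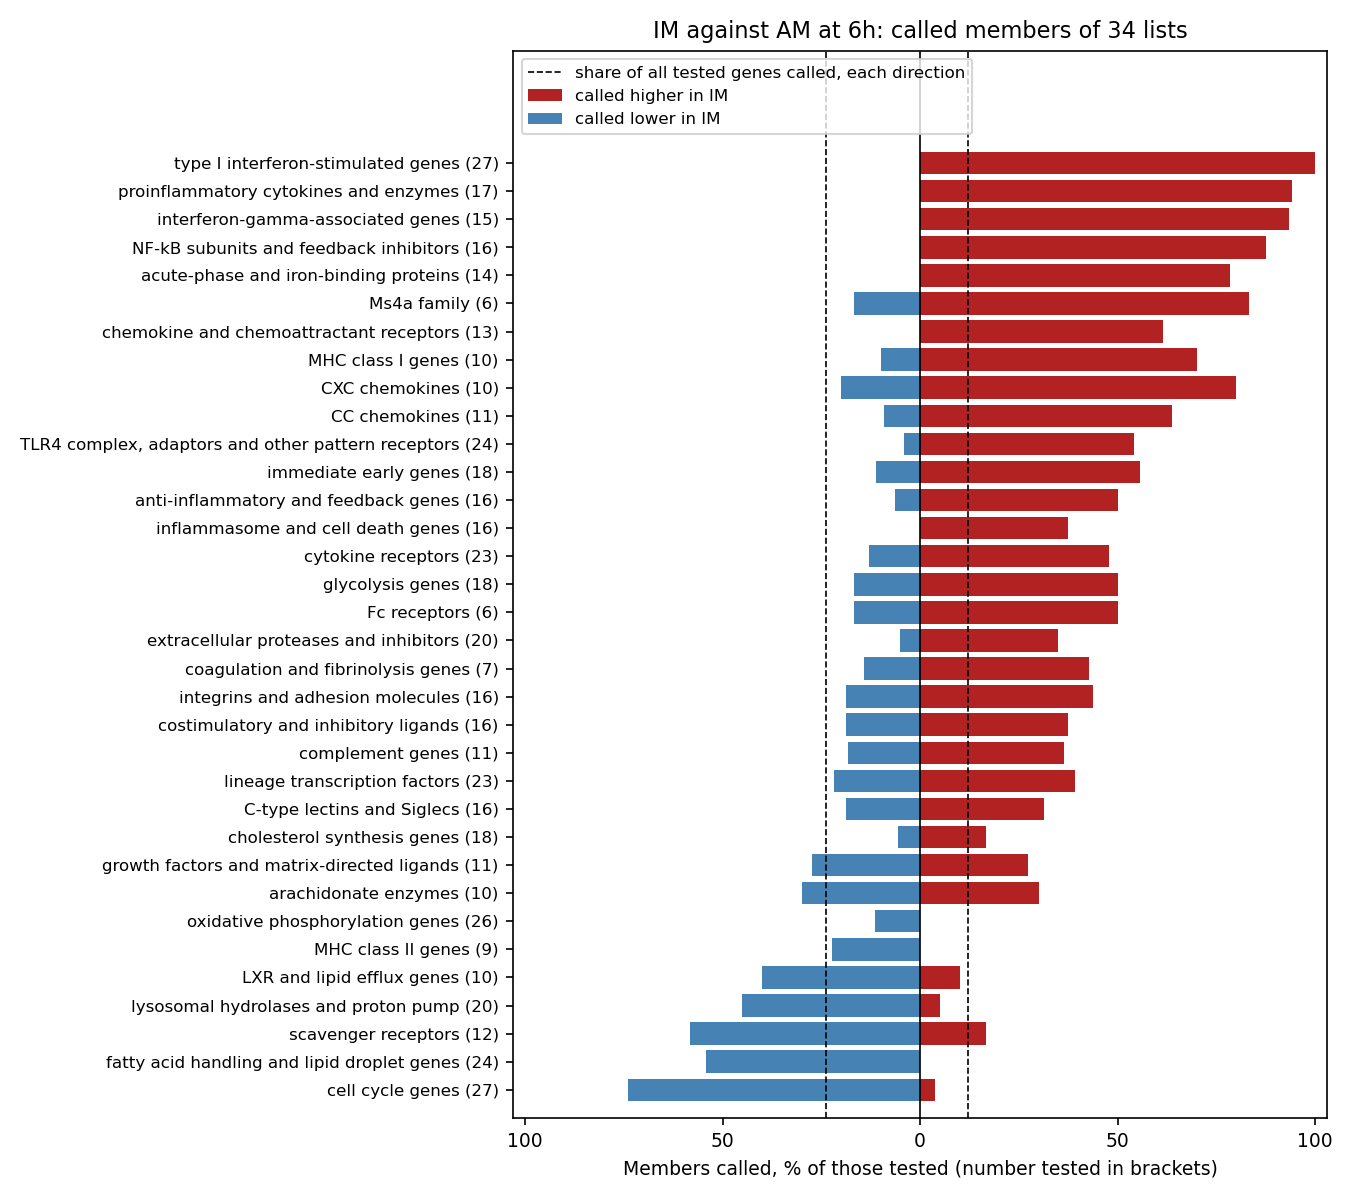
Percentage of tested members called higher (right) and lower (left) in IM against AM at 6h, for 34 lists of genes by function, with the number tested in brackets. Dashed lines mark the 12% higher and 23.9% lower of all genes tested; all 27 type I interferon-stimulated genes were higher, and 20 of 27 cell cycle genes were lower.

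Antigen presentation was read in 2 lists, whose difference was not tested. Of 10 MHC class I genes 7 were higher and 1 lower (Cd1d1), with a median of 1.84, and 2 were higher without IM A161219. B2m, the light chain of class I, had 1511 and 5591 TPM in IM, against 606, 1033 and 1388 TPM in AM (1.99 ± 0.56, adjusted p = 0.0279). The H2-Q and H2-T genes are near copies and are uncertain one by one. Of 9 MHC class II genes none was higher and 2 were lower, a share near that of all genes, H2-DMa and H2-DMb1 of the peptide-loading complex, although the list's median relative to all genes was 0.92. Tested against the median difference, 1 was higher and 1 lower, and 1 was lower without IM N160623, without AM A161219 or without AM B161219. H2-Ab1, a class II beta chain, had 99.9 and 132 TPM in IM, against 46.7, 89.3 and 89.8 TPM in AM, and Cd74, the invariant chain, had 184 and 479 TPM in IM, against 109, 280 and 279 TPM in AM. The IM libraries were not separate from AM for Cd74, and neither gene was called.

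Surface and uptake receptors were called in both directions. Of 16 C-type lectins and Siglecs 5 were higher and 3 lower, and 3 and 2 were without IM A161219. Clec4a1 had 127 and 258 TPM in IM, against 3.15, 15.4 and 8.28 TPM in AM (4.79 ± 0.60, adjusted p = 3.77e-06), and Clec4d, a receptor of mycobacterial glycolipid, differed by 4.54. Cd22, Clec4n and Siglec1 were lower, a share under the 23.9% of all genes tested, and the list's median was 0.83. Of 12 scavenger and apoptotic-cell receptors 2 were higher, Msr1 and Cxcl16, and 7 lower. Axl, the receptor by which AM clear dying cells, had 12.1 and 8.52 TPM in IM, against 127, 202 and 195 TPM in AM (-3.56 ± 0.40), and its relative Mertk differed by -1.48. Against the median difference 3 were lower, and 3 or 4 were lower without either IM library, AM A161219 or AM B161219.

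Of 6 Fc receptor genes Fcgr1, Fcgr4 and Fcer1g were higher, and Fcgrt, the neonatal receptor that recycles IgG, was lower, at 12.6 and 8.92 TPM in IM, against 114, 115 and 130 TPM in AM (-2.98 ± 0.36, adjusted p = 1.62e-07). Without IM A161219 only 1 was higher, and 5 were against the median difference. Of 11 complement genes beside C1q 4 were higher and 2 lower; without IM A161219 2 were higher, and 1 was lower without any one library but AM B161219. Itgam, the CD11b chain of complement receptor 3, had 137 and 199 TPM in IM, against 1.58, 11.4 and 4.25 TPM in AM (5.30 ± 0.75). Itgax, the CD11c chain that marks AM, had 17.1 and 3.36 TPM in IM, against 66.5, 86.1 and 78.2 TPM in AM (-2.74 ± 0.46). So the integrin chains by which the cells are commonly told apart lay on opposite sides. Of 16 integrins and other adhesion molecules 7 were higher and 3 lower, and 4 were higher without IM A161219. Thbs1, thrombospondin 1, had 65.1 and 93.7 TPM in IM, against 1.97, 2.08 and 1.56 TPM in AM (5.17 ± 0.67), and the tetraspanin gene Cd81 differed by -3.77.

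Among secreted and costimulatory products, 7 of 20 extracellular proteases and inhibitors were higher and Ctsd, a lysosomal protease, was lower. Mmp14, a membrane collagenase, had 109 and 168 TPM in IM, against 0.986, 11.8 and 4.8 TPM in AM (5.07 ± 0.62, adjusted p = 2.48e-06), and Adam8 and Timp1 differed by 5.09 and 4.06. The Stfa genes among them are near copies. Of 7 coagulation genes 3 were higher, Procr, Serpinb2 and F10, and 1 was lower; without IM A161219 none of the 3 was higher. Of 16 costimulatory and inhibitory ligands 6 were higher and 3 lower. Cd40 had 15.7 and 53.2 TPM in IM, against 0.566, 3.93 and 3.91 TPM in AM (3.55 ± 0.61). Without IM A161219, 3 ligands were higher and 1 lower, and 10 were higher after quantile normalization or against the median difference. Of 11 growth factors 3 were higher (Osm, Pdgfb, Vegfa) and 3 lower (Vegfb, Pdgfc, Gdf15), against 12% higher and 23.9% lower of all genes tested. Spp1, osteopontin, was not called, with 494 and 31.2 TPM in IM, against 56.9, 186 and 292 TPM in AM, so that the IM libraries enclosed the AM range.

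Lineage transcription factors were called in both directions, 9 of 23 higher and 5 lower; without IM A161219 the counts were 2 and 5, without IM N160623 10 and 3, and with rescaled TPM 9 and 9. In the main fit the share of these factors called lower was near the 23.9% of all genes tested. Klf2, a factor of quiescence in monocytes and endothelium, had 203 and 415 TPM in IM, against 7.54, 12 and 7.38 TPM in AM (5.28 ± 0.57, adjusted p = 4.91e-07). Cebpe, the factor of late granulocyte maturation, had 5.21 and 16.6 TPM in IM, against 0.932, 0 and 2.17 TPM in AM (2.90 ± 0.50). Bhlhe41, a factor of AM self-renewal, had 5.21 and 0.603 TPM in IM, against 14.1, 10.2 and 9.26 TPM in AM (-1.54 ± 0.40). Maf, a factor of tissue macrophages that restrains self-renewal, was higher among the interstitial markers, by 4.55. The myeloid factor gene Spi1 (PU.1) was not called.

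Proliferation genes were lower in IM. Of 27 cell cycle genes 20 were lower, with a median of -0.96, and Ccnd3 alone was higher; 13 were lower without IM N160623 and 13 against the median difference. Mcm7, a subunit of the replicative helicase, had 1.01 and 0.836 TPM in IM, against 11.3, 12.8 and 13.1 TPM in AM (-2.42 ± 0.39, adjusted p = 4.73e-06). Mcm6, Mcm2 and Mcm3 of the same helicase differed by -2.23, -2.21 and -2.14, and no library of IM reached the lowest AM library in Mcm6 or Mcm3. The proliferation marker gene Mki67 was not called.

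Among metabolic genes, those of glycolysis were called mostly higher. Of 18 glycolysis genes 9 were higher and 3 lower, with a median of 1.08; without IM A161219 the counts were 5 and 1. Pfkfb3, the enzyme whose product speeds glycolysis, had 39.2 and 86.8 TPM in IM, against 6.18, 9.58 and 8.8 TPM in AM (3.10 ± 0.38, adjusted p = 5.51e-06). Slc16a3, the lactate exporter MCT4, differed by 2.98, and Aldoc by -2.30. Summed over the glycolysis list, the IM libraries held 841 and 898 TPM, against 740, 893 and 948 TPM in AM, so the groups overlapped. Of 26 oxidative phosphorylation genes none was higher and 3 were lower, with a median of -0.36, and that count rested on the scaling, at 14 after quantile normalization, 18 with rescaled TPM and 1 against the median difference; it was 5 without AM N160623. Of 20 lysosomal genes 9 were lower and Npc2 alone was higher, with a median of -0.63, and 5 were lower without IM A161219. Pla2g15, the lysosomal phospholipase of surfactant breakdown, had 8.08 and 9.64 TPM in IM, against 82.8, 140 and 138 TPM in AM (-3.20 ± 0.41).

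The IM minus AM difference at 6h was then set against the same difference at 0h, to see for which genes it was not the same at both times. Of 8937 genes, 697 (7.8%) were called in limma's test of the difference of differences, 128 in the higher direction (1.43%) and 569 in the lower (6.37%). The median over all genes was -0.39, and the values below are relative to it. The share of calls in the higher direction was 18.4%, against 51.7% after quantile normalization, 46.3% tested against the median, 48.8% with the title ending as a block and 32.6% when the title code entered the fit. The count was 211 with that block, 185 with a pseudocount of 0.1 TPM, 1403 after quantile normalization and 1301 with array weights. It was 174 without IM 0h B171227, 192 without IM 0h A171227, 418 without IM N160623, 443 without IM A161219 and 461 without AM B161219. Apart from AM N160623, the 0h libraries carry another code than those of 6h, so that time and code cannot be told apart for IM. Of the 1074 genes higher at 6h, 99 were called for the change in the higher and 40 in the lower direction; of the 2134 lower at 6h, 222 were called in the lower and 4 in the higher direction. These counts do not say on which side of AM a gene lay at 0h.

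**Figure D5:**
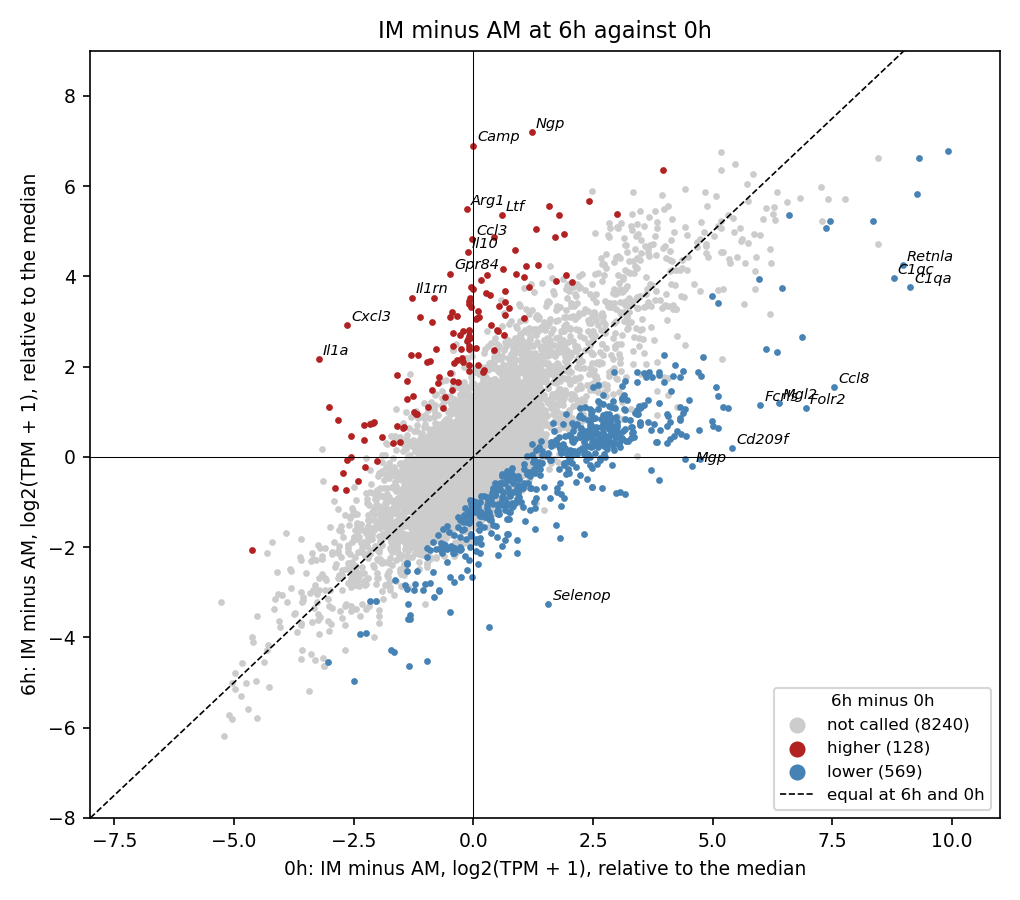
Log2 difference IM minus AM at 6h (vertical) against the same at 0h (horizontal), each relative to its median over all genes, 1 point per gene; points on the dashed line had equal differences. Camp, Arg1 and Il10 lie above 4 at 6h and near 0 at 0h and Ngp lies at 7.20 and 1.22, while Folr2, Ccl8 and Cd209f lie under 2 at 6h and above 5 at 0h.

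Granule and cytokine genes led the higher direction. Camp had the 140 and 331 TPM given above in IM at 6h, and was listed at 0 TPM in the 2 IM and 4 AM libraries of 0h (6.91 ± 1.05, adjusted p = 0.000502). Ngp, at 604 and 1157 TPM in IM at 6h, had 1.32 and 2.03 TPM in IM at 0h and 0.49 TPM or less in AM (5.98 ± 0.70, adjusted p = 4.43e-05), and Ltf, lactoferrin, differed by 4.77. These are granule genes of neutrophil precursors. Of 14 neutrophil markers, 4 were called in this direction and 2 in the other. Tested against the median the counts were 6 and 0. Ly6g had 26.3 and 51.2 TPM in IM at 6h, and 10.8 and 4.48 TPM at 0h.

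Il10, at 15.9 and 23.5 TPM in IM at 6h, was at 0 TPM in both IM libraries of 0h and at 0.384 TPM or less in AM (4.67 ± 0.63, adjusted p = 0.00022). Il1a, a cytokine released by dying and activated cells, had 57.2 and 28.3 TPM in IM at 6h, against 7.31, 11.9 and 15.2 TPM in AM. At 0h it had 0.387 and 1.79 TPM in IM, against 5.27, 29.4, 18.3 and 30.5 TPM in AM (5.40 ± 0.76). So the order of the cell types for Il1a at 6h was the reverse of that at 0h. Cxcl3, at 154 and 13.6 TPM in IM at 6h, had 2.25 and 2.32 TPM in IM at 0h, against 2.22, 32.8, 39.4 and 37.5 TPM in AM (5.55 ± 1.21, adjusted p = 0.00921). Its AM libraries of 0h fell apart, since AM N160623 lay with IM. Tnf differed by 4.34, Il1rn by 4.82, Ccl3 by 4.85 and Gpr84 by 4.55, and Arg1 by 5.63 with IM libraries of 217 and 23.8 TPM at 6h. Without IM N160623 of 6h, Arg1 and Cxcl3 were not called (adjusted p = 0.125 and 0.105), nor were they without either IM library of 0h (0.056 to 0.0854).

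Of 17 proinflammatory genes 7 were called in the higher direction and none in the lower, with a median of 1.89. Of 13 chemoattractant receptors 5 were higher and none lower, with a median of 1.00, and 3 were without IM A161219 or without IM 0h A171227. Among the receptors, Fpr1, the formyl peptide receptor, had 133 and 329 TPM in IM at 6h, against 97.2, 128 and 163 TPM in AM, and was not called at 6h. At 0h it had 47.9 and 23.1 TPM in IM, against 154, 402, 328 and 282 TPM in AM (4.12 ± 0.69, adjusted p = 0.00148). Of 16 feedback genes 5 were called higher and 1 lower, with 2 higher without either IM library of 0h and 3 without either IM library of 6h. Of 27 type I interferon-stimulated genes none was called in this comparison, with a median of 0.78; 2 had an unadjusted p under 0.05 in limma. After quantile normalization 5 were called higher and 1 lower.

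Resident IM genes led the lower direction. Of 21 interstitial macrophage markers 14 were called lower and none higher, with a median of -3.74, and 6 or 5 were without IM 0h A171227 or IM 0h B171227. Folr2 had 1.34 and 1.25 TPM in IM at 6h, against 0.535, 0.25 and 0.498 TPM in AM; at 0h it had 186 and 185 TPM in IM and 1.05 TPM or less in AM (-5.87 ± 1.04, adjusted p = 0.000626). Ccl8, a chemokine of resident macrophages, had 6.58 and 0.663 TPM in IM at 6h, against 308 and 231 TPM in IM at 0h, and did not pass 2.11 TPM in any AM library (-5.99 ± 0.81). The gap between the cell types that both genes showed at 0h was not called at 6h. Cd209f, Mgl2 and Fcrls, a SIGN lectin, a galactose lectin and an Fc-receptor-like scavenger protein, differed by -5.20, -5.18 and -4.85.

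C1qa, which with C1qb and C1qc forms the C1q that opens the classical complement pathway, kept part of its gap. It had 33.9 and 18.1 TPM in IM at 6h, against 1.2, 1.75 and 1.49 TPM in AM, and 1077 and 973 TPM in IM at 0h, against 6.83 TPM or less in AM (-5.34 ± 1.46, adjusted p = 0.0156). C1qc differed by -4.81. C1qa was not called without IM A161219 of 6h (adjusted p = 0.0743) or without either IM library of 0h (0.0758 and 0.0858), and C1qc without any one of 9 libraries (0.0544 to 0.161). Selenop, the selenium carrier of plasma, lay on the other side of AM: it had 19 and 26.8 TPM in IM at 6h, against 211, 309 and 386 TPM in AM, but 1061 and 912 TPM in IM at 0h, against 145, 477, 286 and 597 TPM in AM (-4.82 ± 0.70). Retnla, a secreted resistin-like protein of alternatively activated macrophages, had 9.56 and 36.2 TPM in IM at 6h, against 0.728, 0.454 and 0 TPM in AM, and 3593 and 942 TPM in IM at 0h, against 0.843, 5.18, 1.68 and 4.78 TPM in AM (-4.72 ± 1.08, adjusted p = 0.00428). Its change was not called without IM A171227 of 0h (adjusted p = 0.0744), nor with a pseudocount of 0.1 TPM (0.279) or rescaled TPM (0.0702).

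MHC class II was lower in the same sense. Of 9 genes 8 were called lower and none higher, with a median of -2.92; the count was 4 without IM 0h A171227, none without IM 0h B171227, 1 without IM N160623 and 5 without AM B161219. H2-Ab1 had 99.9 and 132 TPM in IM at 6h, against 46.7, 89.3 and 89.8 TPM in AM, and 2587 and 4200 TPM in IM at 0h, against 78.4, 184, 125 and 294 TPM in AM (-3.38 ± 1.05, adjusted p = 0.0268). Ciita, the master activator of class II genes, had 1.34 and 2.85 TPM in IM at 6h, against 0.433, 1.09 and 0.947 TPM in AM, and 22 and 37.5 TPM in IM at 0h, against 1.44 to 2.1 TPM in AM (-2.35 ± 0.68). The IM libraries were close to AM for both genes at 6h and stood well above AM at 0h. Markers of dendritic cells and of lymphocytes moved with these genes. Dendritic cells and B cells carry class II, but the lymphocyte list also holds genes of T and NK cells. Dendritic cell markers summed to 13.2 and 22.5 TPM in IM at 6h, against 77.1 and 51.6 TPM in IM at 0h, and 2 of 6 were called lower. Lymphocyte markers summed to 9.77 and 27.4 TPM in IM at 6h, against 129 and 140 TPM in IM at 0h, and 2 of 5 were called lower. Without IM 0h A171227 no marker of either list was called lower, and without any one of 6 libraries no lymphocyte marker was. The part of such cells in the class II values was not tested.

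Transcripts of other lung cells changed in the same comparison. Of 13 endothelial markers 9 were called lower, with a median of -2.31, and none without IM 0h B171227, 4 without IM 0h A171227 and 5 without IM N160623. Their sum was 21.2 and 29.2 TPM in IM at 6h, against 647 and 884 TPM in IM at 0h. Fibroblast markers summed to 1.95 and 4.1 TPM in IM at 6h, against 536 and 544 TPM at 0h, most of it Mgp, matrix Gla protein, at 306 and 348 TPM (-4.76 ± 1.01, adjusted p = 0.00245). Lung epithelial markers summed to 31.3 and 44.2 TPM in IM at 6h, against 748 and 360 TPM in IM at 0h, and 1 of 8 was called lower. Erythroid markers summed to 11.4 and 3.06 TPM in IM at 6h, against 563 and 54.1 TPM in IM at 0h, and 4 of 6 were called lower, but none was against the median difference or without any one of 6 libraries. The part of these transcripts in the changes of other genes was not tested. Of 24 alveolar macrophage markers 1 was called higher and 1 lower, with a median of 0.17.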

How the data were processed

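RNA of the sorted cells was sequenced by the authors, who deposited length-normalised expression values (TPM) for 23594 gene rows. Per the submitters' processing notes, STAR, HOMER and mm10 were used; their versions and the annotation were not given in the sources used here. TPM keeps no read depth, so precision was judged from replicate libraries. Row names did not match the values of 18 nasal columns (Pearson r of 0.0097 to 0.025 with the others, against 0.757 to 0.989 among those), and these were not used.

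Log2(TPM + 1) of 27 libraries in 12 groups (0h and ip) was fitted in limma 3.58.1 (R 4.3.3, Python 3.11.15), with 1 coefficient per group, 15 residual degrees of freedom and a mean-variance trend. Genes needed 5 TPM in 2 libraries. P-values are two-sided and Benjamini-Hochberg adjusted over 8937 genes, called under 0.05. The contrasts were IM minus AM at 6h, and that minus the same at 0h. The model was tested on simulated data.

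Members and the 47 gene lists (13 of markers, 34 of function; 654 of 756 genes tested) were chosen with earlier results of these data known. Named were the 14 genes of largest difference in each direction whose libraries did not overlap and whose higher group averaged at least 10 TPM, the 10 in each direction of the second contrast, up to 4 called members of a list in each direction, and members not called; gene models, and some genes not reported here, were passed over. Beyond these, Ly6g, Ccr2, Marco, Pparg, Tnf, Il6, Isg15, Irf7, Fpr1 and some other list members were chosen after their values were seen. Alternatives covered pseudocount, filter, scaling, library weights, trend, title code, title ending, call rule, fitted samples and each library left out; the test against the median difference was added after the data were seen.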

Additional observations from a re-analysis of the deposited data

Results flagged for a closer look

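The IM minus AM log2 difference was not the same at 6h as at 0h, by limma's test of that change, in the 20 genes named for it, given here before the median is subtracted. In the higher direction the change was 6.52 for Camp, 5.59 for Ngp, 5.24 for Arg1, 5.16 for Cxcl3, 5.01 for Il1a, 4.46 for Ccl3, 4.43 for Il1rn, 4.37 for Ltf, 4.28 for Il10 and 4.16 for Gpr84. In the lower direction it was -6.38 for Ccl8, -6.26 for Folr2, -5.74 for C1qa, -5.59 for Cd209f, -5.57 for Mgl2, -5.24 for Fcrls, -5.22 for Selenop, -5.20 for C1qc, -5.15 for Mgp and -5.11 for Retnla.

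Single libraries stood apart in 4 of the 19 sets of 4 AM libraries of 0h examined, by Dixon's 95% criterion. By chance it marks about 1 in 20 sets of normally spread values, a rate that does not hold for sets at or near 0 TPM. Cxcl3 had 2.22 TPM in AM N160623 of 0h, against 32.8 to 39.4 TPM in the others. Ccl3 had 39.1 TPM in AM A171227, against 6.04 to 7.62 TPM in the others. Il10 had 0.384 TPM in AM N160623, and was at 0 TPM in the others, a set in which any value above 0 passes the criterion. Mgl2 had 0.736 TPM in AM D171227, against 0.081 TPM or less in the others, all near the floor.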

How the results depend on the processing

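The number of genes called at 6h, 3208, was 5398 with TPM rescaled without Rn45s and Lars2 and 877 in a test beyond a log2 difference of 1; under the other alternatives that kept all libraries it ran from 2581 (against the median difference) to 4037 (array weights). Leaving out 1 library gave 2035 to 3035. The number called for the change against 0h, 697, was 185 with a pseudocount of 0.1 TPM, 1403 after quantile normalization, 1301 with array weights and 68 beyond a log2 difference of 1, and 174 to 772 without 1 library; the cause was not tested. With the title ending as a replicate block, 3460 genes were called at 6h and 211 for the change; the numbers are shared by 2 pairs at 6h, and no label says that they pair samples. The 28 genes named at 6h kept their call in every setting run. They were picked for the largest differences in the same data, so this does not speak for the other genes called. Of the 20 named for the change, Arg1, C1qa, C1qc, Ccl8, Cxcl3, Folr2 and Retnla lost it in at least 1 setting: with the replicate block the adjusted p was 0.0903 for Arg1, 0.121 for C1qc and 0.051 for Retnla, and without IM N160623 of 6h it was 0.105 for Cxcl3. No named gene changed direction. Of the counts of list members called, 194 at 6h and 519 for the change moved by more than 1.5 times over all settings and lists, and 1550 and 1597 did not. What depth limits cannot be given, since TPM keeps none.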
